A study of Mus musculus with 132 samples.

Results

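A set of 9 genes of the major histocompatibility complex (MHC) class I pathway were examined in single cells of mouse preimplantation embryos: Tap1, Tap2, Tapbp, Psmb8, Psmb9, Psmb10, B2m, H2-K1 and H2-D1. These are 9 of the 32245 genes of the count table, and all 9 were found in it by symbol. The group was assembled around Tap1, which was picked on its higher level in 32-cell embryos given a mimic of miR-381-3p, so that difference is described here and not tested. Tap1 was found at 127 CPM (counts of the gene per 1000000 counts) in mimic-treated 32-cell cells and at 3.46 CPM or less in each of the other groups. H2-K1, the gene of a class I heavy chain, was 4.84-fold higher in the same mimic-treated cells, whereas Psmb8 had no count in any cell.

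Class I molecules display short peptides from inside the cell at its surface. Proteasomes cut proteins into peptides, and the subunits Psmb8, Psmb9 and Psmb10 replace the constitutive catalytic subunits to form the immunoproteasome. Tap1 and Tap2 pair to form the transporter that carries peptides into the endoplasmic reticulum, where tapasin (Tapbp) holds the transporter beside an empty class I molecule. That molecule consists of a heavy chain, such as those encoded by H2-K1 and H2-D1, and the light chain beta-2-microglobulin (B2m). In many cell types interferons raise most of these genes together, and class I display is known to be low in the early embryo.

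In the annotation (GENCODE vM21, GRCm38) all 9 are protein-coding genes, and 7 of them lie in the MHC on chromosome 17. There H2-K1 lies at chr17:33996017-34000347 on the minus strand, Tapbp at chr17:33915899-33929292, Psmb8 at chr17:34197721-34201454, Tap2 at chr17:34203527-34216321 and H2-D1 at chr17:35262730-35267499 on the plus strand, beside Tap1 and Psmb9 whose positions are given below. B2m lies at chr2:122147686-122153083 on the plus strand and Psmb10 at chr8:105935735-105938444 on the minus strand.

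The cells came from embryos of C57BL/6NCrl x DBA/2NHsd F1 females and males, collected as 2-cell embryos and cultured with the mimic or with a scrambled negative control mimic. Mimic and control were used at the same dose in the medium, 10 µM for the 8-cell and 5 µM for the 32-cell groups. The 4 groups were sequenced with Smart-seq2, which reads polyadenylated RNA along the transcript without molecular identifiers: 30 control and 24 mimic cells of the 8-cell stage (embryonic day 2.5) and 39 control and 39 mimic cells of the 32-cell stage (embryonic day 3.5). Each group held cells of 3 to 5 embryos, but the labels do not tie cells to embryos, so each group is 1 sample and no test between groups was made. Both parents were F1 animals, and no label gives the alleles that an embryo inherited at the H2 locus.

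Total counts per cell lay between 544866 and 3461022, and 3 counts in the pooled counts of a group, the limit that a count of 0 allows, were 0.0527 to 0.0971 CPM. All intervals below are 95% intervals of counting error alone and do not cover the spread between cells or embryos. Reads were not strand-specific. Markers of the trophectoderm (TE), the outer lineage of the blastocyst, set the stages apart: under either treatment 8 of 9 were at least 1 log2 unit higher at the 32-cell stage. Of 8 blood cell markers, Ptprc, Lyz2, Adgre1 and Tyrobp had no count in any group, and their summed level was 36.7 CPM in 32-cell control cells, against 23.2 CPM with the mimic, nearly all of it from Cd68, a lysosomal protein gene. The summed markers of cumulus cells were at most 0.657 CPM and those of sperm at most 1.45 CPM in each group. Of 6 stromal and endothelial markers Col1a2 and Dcn had no count in any group, and their sum was 182 CPM in 32-cell control cells, against 87.99 CPM with the mimic, mostly Pecam1, an adhesion molecule gene. The part of these transcripts in the results below was not tested. Sex chromosome transcripts were confounded with the treatment at the 32-cell stage: all 39 control cells had more counts of 4 Y-linked genes than of Xist, the RNA that coats the inactive X chromosome, and all 39 mimic cells had more Xist. The treatment and these transcripts cannot be told apart at that stage.

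Sequences that bear on these genes are the seed of the added microRNA and the elements ahead of the class I genes. The mature mouse miR-381-3p lies at chr12:109726870-109726891 on the plus strand (RefSeq, GRCm38.p6), and its seed, bases 2 to 8, is in capitals. Below it stands the single match to that seed among the 9 genes, in the 3′ untranslated region (UTR) of Tap1, with the 7 complementary bases in capitals.
miR-381-3p: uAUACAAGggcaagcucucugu
Tap1 3′ UTR: ccggtgctgagCTTGTATcacagcatgcac
The Tap1 window lies at chr17:34197033-34197062 on the plus strand (GENCODE vM21, GRCm38), in the last exon, with the match 270 bases after the stop codon. It is a 7-base match not followed by the A that would make it an 8-base site. The longest annotated 3′ UTRs of the other 8 genes held neither this match, nor the 8-base site, nor the match to bases 2 to 7 followed by A. Of 20746 genes of the table with an annotated 3′ UTR, 11.3% held the 7-base match and 21.5% held any of these sites. The 9 genes have shorter 3′ UTRs, with a median of 448 bases against 967 over all genes. A match is a description of letters and does not show that the microRNA acts there.

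The promoters of H2-K1 and H2-D1 each held 2 elements known from class I genes, a kappaB element (GGGATTCCC) and one part of the interferon-stimulated response element (GAANNGAAA, here on the opposite strand as TTTCACTTC). Both are in capitals below, 5′ to 3′ along each gene.
H2-K1 promoter: GGGATTCCCcatctccacagTTTCACTTCt
H2-D1 promoter: GGGATTCCCcatctcctcagTTTCACTTCt
The H2-K1 window lies at chr17:34000428-34000457 on the minus strand and the H2-D1 window at chr17:35262924-35262953 on the plus strand (RefSeq, GRCm38.p6). The 2 windows differ at 1 of 30 bases, A17T, counted from the first base of the window with H2-K1 first. Over the 254 bases of their promoters that could be aligned without a gap, 180 were identical (70.9%). These motifs were chosen after the sequences had been read. On either strand GGGATTCCC occurred in 0.353% and GAANNGAAA in 7.52% of 32851 promoters of 300 bases, which run from 250 bases before to 50 after each start. Promoter sequences were found for 8 of the 9 genes. B2m was the only one of them with another part of that element (GAAANNGAA, 8.56% of promoters), shown in capitals, and Psmb8 the only one with the core of the interferon-gamma activated site (TTCNNNGAA, 8.30% of promoters).
B2m promoter: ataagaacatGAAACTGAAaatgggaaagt
Psmb8 promoter: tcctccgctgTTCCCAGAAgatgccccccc
The B2m window lies at chr2:122147538-122147567 and the Psmb8 window at chr17:34198088-34198117, both on the plus strand.

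Tap1 and Psmb9 stand head to head on chromosome 17, and their RefSeq starts are 226 bases apart on opposite strands. Their promoter windows overlap over 275 bases, so the GC box (GGGCGG) found for one gene of the pair is the same box read from the other. It occurs in 35.7% of promoters and is shown in capitals along the Tap1 strand, where it reads as its complement. Tapbp held the box as well.
Tap1 and Psmb9 promoter: cagactgaggccCCGCCCcatcatcgcgca
This window lies at chr17:34187368-34187397. The annotated gene bodies overlap as well, Tap1 at chr17:34187553-34197225 on the plus strand and Psmb9 at chr17:34181987-34187764 on the minus strand. Of the 50-base windows of the longest Psmb9 transcript, 12.5% were found in reverse in a Tap1 transcript, so without strand information reads in that stretch could be given to either gene.

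**Figure D1:**
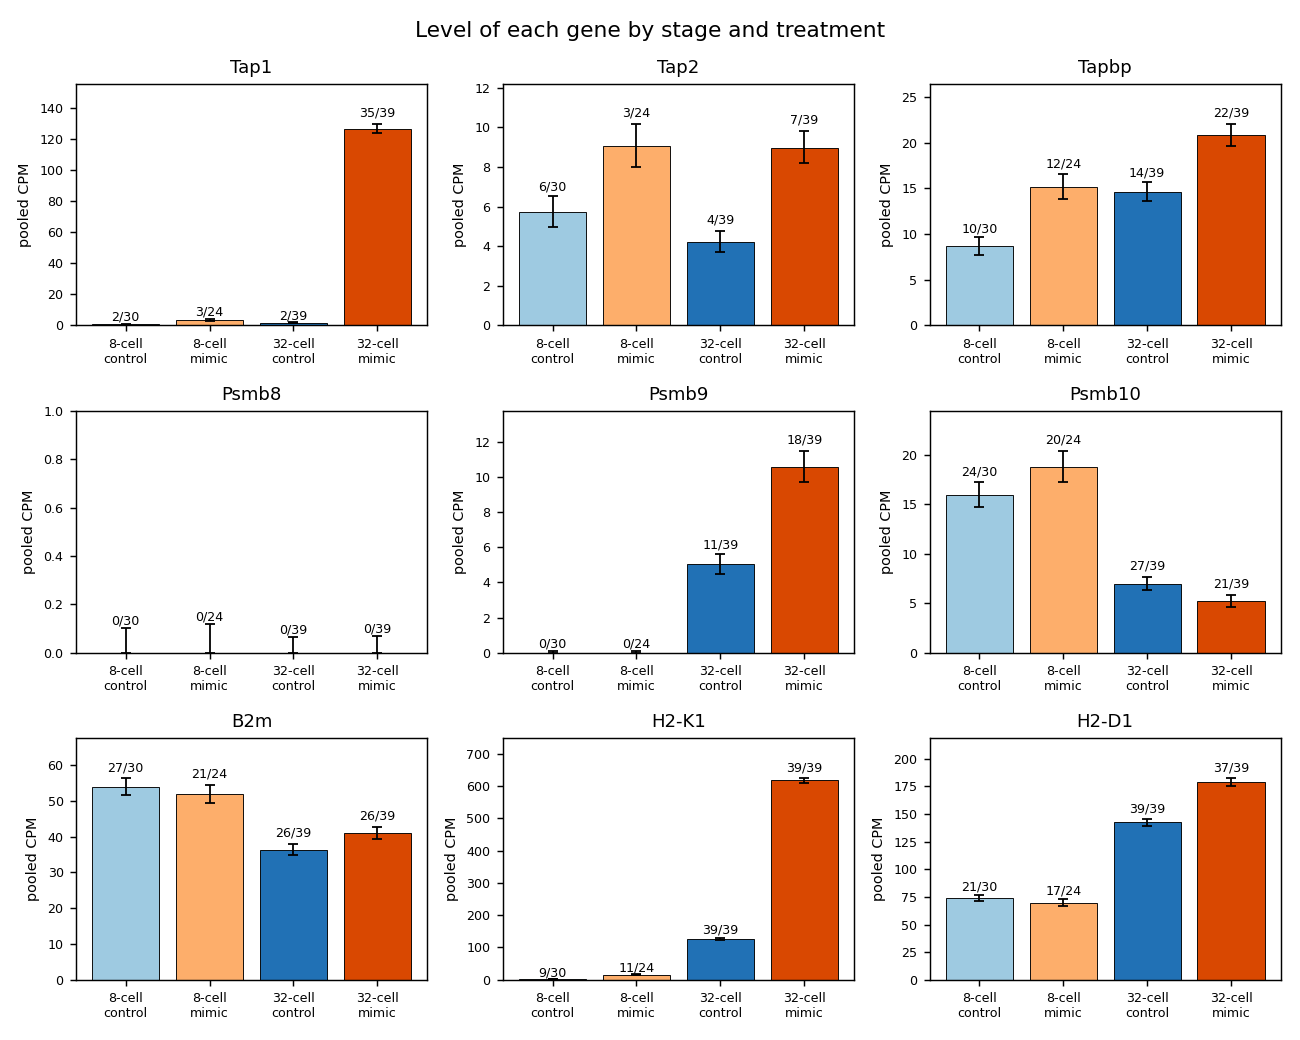
Pooled level (y axis, CPM without mitochondrial genes, a separate linear axis from 0 for each gene) of the 9 genes in the 4 groups (x axis). Error bars are 95% Poisson intervals of counting error, and the fraction above each bar gives cells with a count of all cells; Tap1 stands at 127 CPM in 32-cell mimic cells and Psmb8 at 0 in every group.

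Tap1, one of the 2 transporter chains, was nearly absent outside the 32-cell mimic group. It had a count in 2 of 30 control cells of the 8-cell stage (1.73 and 15.6 CPM) and in 3 of 24 mimic cells of that stage (6.01, 56.1 and 68.3 CPM). At the 32-cell stage it had a count in 2 of 39 control cells, at 17.1 and 50.9 CPM. In the 39 mimic cells of the 32-cell stage the lowest was 0, the median 87 and the highest 591 CPM, with a count in 35 cells, or 89.7% (exact binomial interval 75.8 to 97.1%, which takes the cells as independent and leaves out the spread between embryos). In that group 4 cells had no count, 10 lay above 0 but no higher than the highest control cell, and 25 lay above every control cell. Thus 14 of the 39 mimic cells lay within the range of the control cells. The 5 highest cells held 48.4% of the Tap1 counts of the group.

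Pooled over cells, Tap1 stood at 0.817 CPM (interval 0.551 to 1.17) in 8-cell control, 3.46 CPM (2.84 to 4.18) in 8-cell mimic, 1.62 CPM (1.304 to 1.98) in 32-cell control and 127 CPM (124 to 130) in 32-cell mimic cells. In the later embryos the mimic level was 78.4 times the control level, a difference of 5.61 in log2(CPM + 1) with bounds of 5.39 and 5.83 from the 2 counting intervals. Of the 7307 genes that reached 20 CPM in at least 1 of these groups, only Xist (7.37) and Hormad1 (5.64), a meiotic chromosome protein gene, had a larger difference. The value is set partly by the 2 control cells with counts: without the highest cell of each group it was 6.57, and without the run of 24 control cells described below it was 4.80.

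Tap2, the partner chain, did not share this pattern. It had a count in 6 of 30 and 3 of 24 cells of the 8-cell stage and in 4 of 39 control and 7 of 39 mimic cells of the 32-cell stage, and the median cell was at 0 in every group. The highest cells were at 46.1, 132.4, 70.7 and 160 CPM in that order. Pooled levels were 5.72, 9.06, 4.22 and 8.98 CPM. Only 6 of the 35 Tap1-positive mimic cells of the 32-cell stage also had a Tap2 count. The 32-cell difference of 0.94 (bounds 0.67 and 1.202) rested on 1 run of 18 cells, which held 446 of the 478 Tap2 counts of the group, and without that run it was -1.41. The gene was under 20 CPM in every group and so was not among those counted as higher or lower.

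Tapbp, the tapasin gene, was detected more widely, in 10 of 30, 12 of 24, 14 of 39 and 22 of 39 cells in the order 8-cell control, 8-cell mimic, 32-cell control, 32-cell mimic. Pooled levels were 8.68, 15.2, 14.6 and 20.8 CPM. Single cells ranged from 0 to 69.9, 77.1, 127 and 120 CPM, so the groups overlapped over nearly their whole range. The mimic differences were 0.74 (bounds 0.47 and 1.01) at the 8-cell and 0.48 (0.31 and 0.65) at the 32-cell stage. The latter was 0.20 without a run of 18 mimic cells, described below, and 1.0 as the mean over cells of log2(CPM + 1).

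Each of the 3 immunoproteasome genes had a pattern of its own. Psmb8 was at 0 in every cell, although its constitutive counterpart Psmb5 had a count in every cell, at 91.0 to 130 CPM pooled. Psmb9 was at 0 in all 54 cells of the 8-cell stage and appeared at the 32-cell stage, in 11 of 39 control cells (pooled 5.03 CPM, highest cell 42.4) and 18 of 39 mimic cells (pooled 10.6 CPM, highest cell 98.2). In control cells its 32-cell level was 61.5 times that of 3 counts over the 8-cell group, the limit that 0 counts allows by counting error alone. All 18 Psmb9-positive mimic cells were among the 35 with Tap1, and 0 of the 4 cells without Tap1 had Psmb9. Since most of the 39 cells had Tap1, such an overlap says little. Over these cells the Pearson r of Psmb9 with Tap1 in log2(CPM + 1) was 0.15. The part of the overlapping gene bodies in these values was not tested. In control cells Psmb9 was found in 11 cells and Tap1 in 2, so it occurred without its neighbour there.

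Psmb10 followed the opposite course over development. It had a count in 24 of 30 and 20 of 24 cells of the 8-cell stage and stood at 15.9 and 18.8 CPM, against 6.94 CPM in 32-cell control (27 of 39 cells) and 5.16 CPM in 32-cell mimic cells (21 of 39). Its highest cells were at 66.4, 105.2, 41.5 and 27.8 CPM, and every group had cells at 0. Per kilobase of the longest coding transcript, Psmb7, the constitutive subunit that Psmb10 replaces, exceeded it 15.9-fold and 18.3-fold at the 8-cell stage and 45.3-fold and 65.7-fold at the 32-cell stage, control first. Psmb6 exceeded Psmb9 326-fold in 32-cell control and 154.4-fold in 32-cell mimic cells on the same scale.

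B2m, the light chain, was present in most cells of every group and, pooled over all cells of a group, differed little between treatments. It had a count in 27 of 30, 21 of 24, 26 of 39 and 26 of 39 cells. Median cells were at 41.8, 50.8, 23.9 and 19.8 CPM, the highest at 241, 163.5, 144.7 and 173 CPM, and some cells of each group were at 0. Pooled levels were 53.9, 51.9, 36.4 and 41.0 CPM, so the mimic and control groups differed by -0.05 at the 8-cell and 0.17 at the 32-cell stage on the log2 scale. The latter was 0.90 without the run of 24 control cells and -0.17 without that of 15, both described below.

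H2-K1 had the highest level per kilobase of the 9 in both groups of the 32-cell stage and was found in each of the 78 cells of the 32-cell stage. In 32-cell control cells the lowest, median and highest levels were 25.4, 101.5 and 364 CPM, and in mimic cells 86.5, 561 and 1827 CPM. Here 27 of 39 mimic cells lay above the highest control cell, and 14 of 39 control cells lay below the lowest mimic cell. The pooled level was 128 CPM (interval 125 to 131) without and 617 CPM (611 to 624) with the mimic, a difference of 2.27 (bounds 2.22 and 2.32). At the 8-cell stage H2-K1 had a count in 9 of 30 control cells, at most 19.5 CPM, and in 11 of 24 mimic cells, at most 133 CPM. Of those mimic cells 7 lay above every 8-cell control cell. The pooled levels were 1.66 and 15.4 CPM, 9.25-fold apart, both under 20 CPM.

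H2-D1, the other classical heavy chain gene, showed little of this difference. Its pooled levels were 73.99 and 69.9 CPM in 8-cell control and mimic cells and 142 and 179 CPM in 32-cell control and mimic cells. Ranges at the 32-cell stage were 1.64 to 280 CPM in control and 0 to 492 CPM in mimic cells, with medians of 136.2 and 166.2 CPM, and 7 mimic cells lay above the highest control cell. The 32-cell difference was 0.33 (bounds 0.26 and 0.39) and that at the 8-cell stage -0.08 (bounds -0.19 and 0.03).

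**Figure D2:**
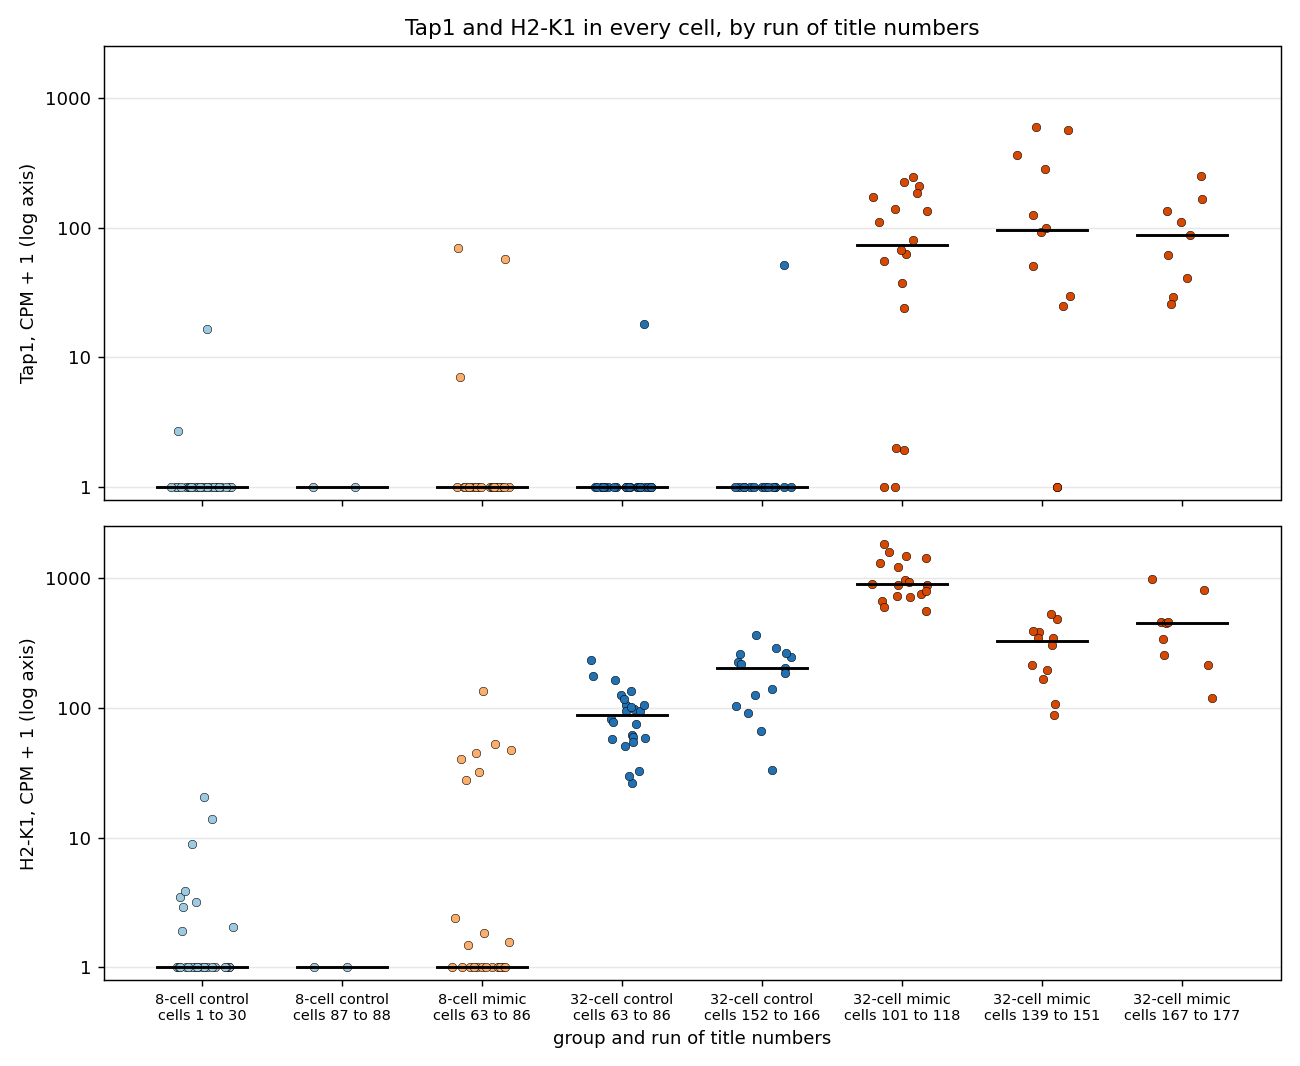
Level of Tap1 (upper panel) and H2-K1 (lower panel) in every cell, as CPM + 1 on a log axis, by group and run of numbers in the cell titles (x axis); points are cells and black lines the median cell of a run. All 3 runs of 32-cell mimic cells hold Tap1-positive cells, whereas for H2-K1 the run of 18 mimic cells stands at 561 CPM or more and the other mimic runs reach down to 86.5 CPM.

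The cells of a group were divided into runs by the numbers in their titles, a run ending at a gap of over 5 or where the group changed, so each run holds 1 treatment by construction. No label says what these numbers stand for. Tap1 was high in each of the 3 runs of 32-cell mimic cells: 90.3 CPM in a run of 18 cells, 192 CPM in a run of 12 and 102.3 CPM in a run of 9. Control runs were at 0.294 CPM (24 cells) and 3.59 CPM (15 cells). The lowest mimic run thus stood above the highest control run for Tap1, which was picked on its level in these mimic cells. This order of runs was also found for H2-K1. Its mimic runs were at 996, 295 and 483 CPM in that order and its control runs at 90.6 and 182 CPM. The mimic runs of H2-K1 differed widely among themselves. The share of all genes with this order of runs was not counted, so nothing is read from it. B2m ran the other way in the run of 18 mimic cells, at 13.4 CPM against 54.4 and 61.8 CPM in the others, and its control runs were at 46.3 and 21.6 CPM. Psmb9 stood at 21.7 CPM in the run of 18 mimic cells and at 5.19 and 2.15 CPM in the others, and control runs were at 2.88 and 8.22 CPM. Without that run the Psmb9 difference was -0.35.

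**Figure D3:**
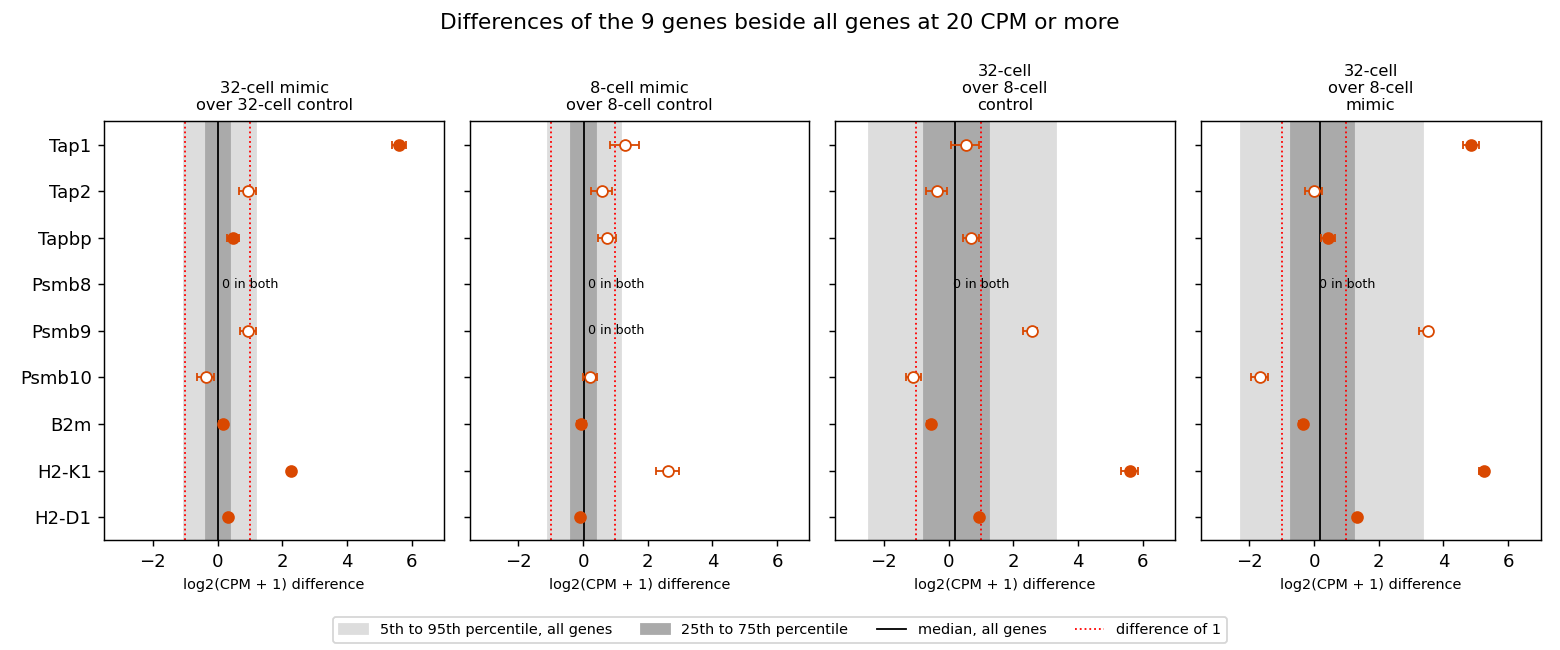
Difference in log2(CPM + 1) (x axis) of each of the 9 genes (y axis) in the 4 comparisons between groups. Points are pooled values with bounds from the 95% counting intervals, filled where the gene reaches 20 CPM in at least 1 of the groups compared and open otherwise; grey bands span the 5th to 95th and 25th to 75th percentiles of all genes that reach it, the black line is their median and dotted lines mark a difference of 1.

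To ask how the 9 genes compare with the rest, a gene was counted as higher or lower where the log2(CPM + 1) difference was 1 or more, among genes that reached 20 CPM in at least 1 of the groups compared. At the 32-cell stage 5 of the 9 passed that minimum, and Tap1 and H2-K1 were higher in mimic cells and 0 were lower. Over all 7307 genes 6.87% were higher and 5.36% were lower, with a median of 0.01. The median over the 9 genes was 0.48, with 7 above 0, Psmb10 below and Psmb8 at 0. Since Tap1 was selected on this contrast, nothing is read from the count. At the 8-cell stage only B2m and H2-D1 passed, and 0 of them were higher or lower, against 6.96% and 6.09% of 6570 genes. The median was 0.22 for the 9 genes and 0.03 for the 6570 genes. Below the minimum, H2-K1 (2.62, bounds 2.26 and 2.97) and Tap1 (1.296, bounds 0.83 and 1.74) differed by more than 1 at the 8-cell stage, Tap1 on 3 mimic and 2 control cells with a count. As the mean over cells of log2(CPM + 1) these differences were 1.09 and 0.43, and with cells thinned to the lowest total that of Tap1 was 2.39.

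The 8-cell stage holds cells of both kinds of sex chromosome transcripts in each treatment, which the 32-cell stage does not. Cells with Y-linked counts above Xist bear title numbers 9 to 16 in control and 79 to 86 in mimic cells, 1 block in each treatment. No label says whether a block is 1 embryo, so these transcripts and the block cannot be told apart. All 5 Tap1-positive cells of the 8-cell stage had Y-linked counts and no Xist. Within cells with Y-linked counts above Xist, Tap1 was found in 2 of 7 control and 3 of 8 mimic cells (2.76 and 13.1 CPM). Within cells with Xist only, Tap1 had a count in 0 of 23 control and 0 of 11 mimic cells, which allows shares of cells with a count of up to 13.0 and 27.3%, taken as 3 cells of each total (exact upper bounds 14.8 and 28.5%). H2-K1 was at 1.43 and 2.43 CPM in the Xist-only cells, control first, and at 2.21 and 32.2 CPM in the Y-linked cells. Of its counts in the Y-linked mimic cells, 1 cell held 50.2%. In 3 mimic cells with both kinds and more Xist, H2-K1 stood at 38.5 CPM. The 8-cell mimic excess of H2-K1 was therefore 0.50 (bounds -0.13 and 1.12) in Xist-only cells and 3.37 (2.78 and 3.95) in Y-linked cells. The difference between these values was not tested.

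The course from the 8-cell to the 32-cell stage was followed within each treatment. These comparisons share their groups with those above, and since the dose was 10 µM at the 8-cell and 5 µM at the 32-cell stage, stage and dose cannot be told apart. Sex chromosome transcripts differed between the stages as well. Of control cells 7 of 30 and 39 of 39 had Y-linked counts above Xist, 8-cell first. Of mimic cells 11 of 24 and 39 of 39 had Xist only. The part of these transcripts in the stage differences was not tested. In control cells 3 of the 9 genes passed the minimum, of which H2-K1 was higher at the 32-cell stage (76.8-fold, difference 5.59) and 0 were lower, against 30% higher and 20.1% lower of 7469 genes. H2-D1 differed by 0.94, or by 2.13 as the mean over cells of log2(CPM + 1). In mimic cells 5 passed and Tap1 (4.84), H2-K1 (5.24) and H2-D1 (1.34) were higher and 0 were lower, against 29.1% and 18.8% of 7594 genes. Tap1 was picked on its 32-cell mimic level. H2-K1 in both treatments and Tap1 in mimic cells passed the minimum only through the 32-cell group, so nothing is read from these counts. Psmb10 was lower at the 32-cell stage by 1.09 in control and 1.68 in mimic cells on the log2 scale but stayed under 20 CPM. B2m differed by -0.56 and -0.33, control first, or by -1.33 and -1.53 as the mean over cells, past the limit of 1. On that measure Psmb10 was lower by 0.76 and 1.75. Tap1 in control cells differed by 0.53, with 2 positive cells at either stage.

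Because levels of different genes can be set side by side only per transcript length, pooled CPM was divided by the length of the longest coding transcript. At the 8-cell stage the light chain led, with B2m at 62.7 CPM per kilobase in control and 60.3 in mimic cells, ahead of H2-D1 at 35.2 and 33.3. At the 32-cell stage H2-K1 led at 78.7 in control and 381 in mimic cells, followed by H2-D1 at 67.8 and 84.99 and by B2m at 42.3 and 47.7 CPM per kilobase. Tap1 ranked the eighth of the 9 in 32-cell control at 0.548 and the fourth in mimic cells at 42.9 CPM per kilobase, whereas Tap2 was at 1.23 and 2.61. Psmb10 and Tapbp in 32-cell control (5.30 and 5.05) and Psmb9 and Tapbp in 32-cell mimic cells (7.82 and 7.18) were neighbours with overlapping counting intervals. Tap1 was below Tap2 in 3 groups and above it in 32-cell mimic cells, per kilobase.

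At the 32-cell stage the inner cell mass (ICM), which forms the embryo proper, and the TE begin to separate, so the comparison was repeated within classes. Clusters built without the pathway and marker genes gave 25 ICM-like and 14 TE-like control cells and 13 ICM-like and 26 TE-like mimic cells. All 9 ICM markers were higher in the ICM-like and all 9 TE markers higher in the TE-like class, with control and mimic cells pooled. The classes were named by the mean scores of these same markers, so the general direction was set by the naming. Some of these markers also moved with the treatment: over all cells of the stage 2 of 9 ICM markers and 1 of 9 TE markers were lower with the mimic and 0 were higher. Tdgf1, a Nodal co-receptor gene, was at 249 CPM in control cells against 11.9 CPM with the mimic, Pdgfra, a growth factor receptor gene of the primitive endoderm, at 132.2 against 40.7 CPM, and Tspan8, a tetraspanin gene, at 193 against 72.9 CPM. Spic was at 459 and 420 CPM, Gata3 at 1536 and 1350 CPM and Krt18 at 1262 and 1375 CPM, control first. The part of these markers in the differences within classes was not tested. Tap1 was at 2.83 CPM in 25 ICM-like control cells (2 with a count) and 138 CPM in 13 ICM-like mimic cells (12 with a count). The highest cell held 89.1% of the control and 46.3% of the mimic counts there, and without the highest cell of each group Tap1 was at 0.323 and 83 CPM. In TE-like cells it had 0 counts in 14 control cells and stood at 122 CPM in mimic cells, 23 of 26 with a count. That is 989 times the level of 3 counts over the control cells, a limit of counting error alone. By cells, 0 of 14 allows up to 23.2% with a count (exact upper bound, cells taken as independent). H2-K1 was at 126 and 631 CPM in ICM-like and at 130 and 611 CPM in TE-like cells, control first, so its difference was 2.32 and 2.22. Its level moved with the runs: the TE-like control level was 66.9 CPM without the control run of 15 cells and 214.9 CPM without that of 24 (difference 3.17 and 1.504), and without the run of 18 mimic cells the ICM-like difference was 1.545 and the TE-like one 1.585. Tap2 stayed under 20 CPM in both classes. Its ICM-like level was 7.34 CPM without the mimic (3 of 25 cells) and 2.29 CPM with it (1 of 13), but 1 cell held 81.6% of the control counts. Without the highest cell of each group these levels were 1.48 and 0 CPM, and without the control run of 24 cells the control level was 3.04 CPM. Among TE-like cells a single count in 1 of 14 control cells stood against 11.9 CPM with the mimic (6 of 26 cells), or 1.39 CPM without the run of 18 mimic cells.

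Psmb9 and B2m had unlike levels in the 2 classes of control cells. Psmb9 was found in 11 of 25 ICM-like and 0 of 14 TE-like control cells, at 8.79 and 0 CPM, and in 7 of 13 ICM-like and 11 of 26 TE-like mimic cells, at 21.9 and 5.64 CPM. Without the run of 18 mimic cells the mimic levels were 3.41 and 3.86 CPM, so that contrast rested on 1 run. B2m ran the other way, at 15.1 CPM in ICM-like and 64.9 CPM in TE-like control cells and at 24.8 and 48.1 CPM in mimic cells. Without the highest cell of each class B2m was at 13.3 and 58.7 CPM in control cells and at 12.4 and 39.7 CPM in mimic cells. Its TE-like control level was 32.1 CPM without the control run of 24 cells and 89.2 CPM without that of 15, against ICM-like levels of 12.8 and 16.5 CPM. The TE-like mimic difference of B2m, -0.43 in all cells, was 0.57 and -0.88 in that order and 0.04 without the run of 18 mimic cells. In mimic cells without the run of 9, B2m was at 30.5 CPM in ICM-like and 33.1 CPM in TE-like cells. Tapbp was at 9.40 and 21.7 CPM in control cells against 15.7 and 23.1 CPM with the mimic, ICM-like first, but 1 TE-like cell held 64.7% of the TE-like control counts, and without the highest cell of each class the levels were 5.16 and 8.86 CPM in control and 8.23 and 19.7 CPM in mimic cells. Of the ICM-like mimic counts of Tapbp 1 cell held 51%. Within ICM-like cells 5 members passed the minimum, of which Tap1, Psmb9 and H2-K1 were higher in mimic cells and 0 were lower, against 11.0% and 10.2% of 7385 genes. Tap1 was selected on this contrast, and Psmb9 passed the minimum only through its mimic level. Without the run of 18 mimic cells the ICM-like levels of Psmb9 were 8.79 CPM for control and 3.41 CPM for mimic, a difference of -1.15, and without the highest cell of each group it was at 7.60 and 17.8 CPM, under the minimum. Without the control run of 24 cells its difference was 0.51. The ICM-like differences of B2m and Tapbp also moved with the runs. That of B2m was 1.26 without the run of 18 and -2.07 without the run of 12 mimic cells, and that of Tapbp was -2.31 and 1.39. Within TE-like cells Tap1 and H2-K1 were higher and 0 were lower, against 12% and 7.47% of 7326 genes. Here too Tap1 was selected on this contrast, and it passed the minimum only through its mimic level. The classes hold unequal numbers of mimic and control cells, and the part of this in the pooled differences of B2m and Psmb9 was not tested.

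H2-K1 and H2-D1 belong to a family of related class I genes, so their counts depend on how reads were shared out. Of the 50-base windows of their longest coding transcripts, 8.79% of H2-K1 and 14.3% of H2-D1 occurred in transcripts of other genes, among them each other and H2-Q genes, against 0.861% for Tap1 and 0% for B2m and the 3 immunoproteasome genes on the sense strand. None of the 6 non-classical H2-Q genes of the count matrix reached 20 CPM at the 32-cell stage, and their differences ran from -0.17 for H2-Q2 to -1.81 for H2-Q10. Summed, they were at 19.1 CPM in control cells against 4.28 CPM with the mimic, and all 39 control but only 18 of 39 mimic cells had a count. Single control cells ranged from 1.54 to 47.6 CPM with a median of 17.1, and mimic cells from 0 to 52.1 CPM with a median of 0. By run of mimic cells the H2-Q sum was 3.61 CPM (6 of 18 cells with a count), 8.97 CPM (11 of 12) and 0.0631 CPM (1 of 9), against 21.6 and 15.4 CPM in the control runs, where every cell had a count. At the 8-cell stage the sum was 38.5 CPM in control cells against 46.8 CPM with the mimic.

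**Figure D4:**
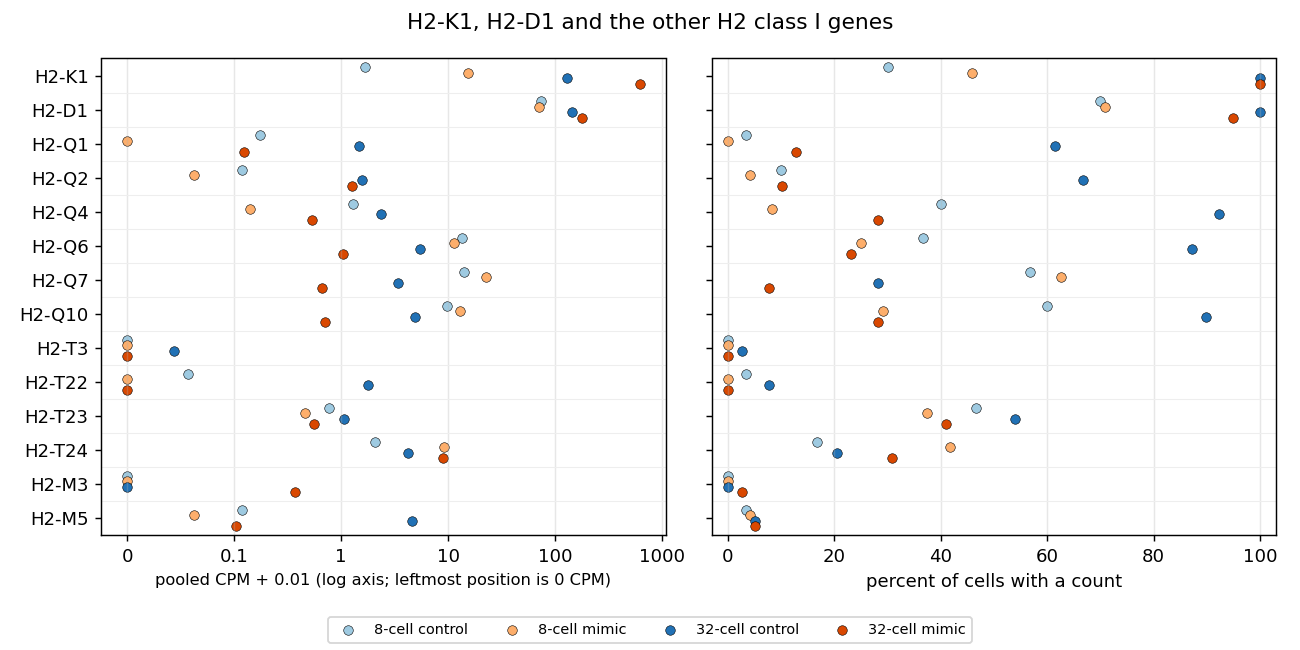
Pooled CPM + 0.01 on a log axis (left) and percent of cells with a count (right) of H2-K1, H2-D1 and 12 other H2 class I genes (y axis) in the 4 groups (colours). H2-K1 is highest in 32-cell mimic cells, whereas H2-Q1, H2-Q4, H2-Q6 and H2-Q10 have a count in 24 or more of 39 control cells and in 11 or fewer of 39 mimic cells of that stage.

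Summed over 14 H2 class I genes, the family stood at 301 CPM in 32-cell control and 810 CPM in 32-cell mimic cells, 2.69-fold apart (difference 1.43). H2-K1 made up 42.4% of that sum without and 76.2% with the mimic, against 6.36% and 0.529% for the H2-Q genes. All reads were set against 1 reference genome, and alleles of the embryos are not given. The part of allele differences and of read sharing in the H2-K1 and H2-Q levels was not tested.

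Further steps of the pathway were read from lists drawn up for this purpose, whose counts stand beside the 6.87% higher and 5.36% lower of all genes at 20 CPM or more. Among 9 genes of the constitutive and regulatory proteasome, 8 passed the minimum at the 32-cell stage and 0 were higher or lower, with a list median of -0.20. Psme1 and Psme2, the subunits of the interferon-inducible activator, were at 33.8 and 42.7 CPM in control cells against 19.3 and 30.1 CPM with the mimic. Of 12 genes of peptide trimming and loading 10 passed and 1, Lnpep, an aminopeptidase gene, was higher at 19.6 CPM in control cells against 56.5 CPM with the mimic. Calr, the chaperone calreticulin of the loading complex, was at 471 and 237 CPM, a difference of -0.99. The list median was -0.06.

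Of 26 regulators of class I genes 12 passed, of which 1 was higher and 1 lower, near that background. Ifngr2, a chain of the interferon-gamma receptor, was at 6.19 CPM in control cells against 34.3 CPM with the mimic, with a count in 14 and 29 of 39 cells, and Jak2, a kinase bound to that receptor, was at 23.1 and 9.07 CPM. Nlrc5, the class I transactivator, had a count in 0 of 39 control and 1 of 39 mimic cells, and Irf1, an activator of Tap1 and Psmb9, likewise. Of 30 interferon response genes measured, 3 passed: Bst2 was higher (13.7 and 34.1 CPM), and Ube2l6 (46.2 and 9.86 CPM) and Mavs (28.6 and 13.3 CPM) were lower in mimic cells. Of the 30, 12 had no count in any 32-cell cell, among them Ifit1, Ifit2, Ifit3, Rsad2, Isg15 and Igtp, 7 had counts in mimic cells alone and 2 in control cells alone. Those in mimic cells alone include Irf7 and Gbp3 (2 cells each) and Oasl1 and Gbp2 (1 cell each). Ifi35, another interferon-induced gene, was at 3.48 CPM with a count in 6 of 39 control cells and at 14.4 CPM in 19 of 39 mimic cells, under the minimum. The list median was 0. None of 16 other class I genes reached 20 CPM at the 32-cell stage. The 10 class II genes did not reach 20 CPM at the 32-cell stage, the highest being H2-Eb1 at 3.99 CPM in control cells against 11.5 CPM with the mimic. Their list median was 1.09, against 0.01 over the 7307 genes that reached 20 CPM, which include none of them. H2-Ab1 was at 1.44 and 8.15 CPM, H2-Oa at 0.633 and 4.09 CPM and H2-DMb1 at 0.158 and 5.54 CPM, control first, with counts in at most 9 of 39 cells of a group. H2-DMa went the other way, from 3.57 to 1.18 CPM, H2-DMb2 differed by -0.02, and H2-Aa and H2-Ob had no count at that stage.

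Within 200000 bases of Tap1 the annotation holds 39 genes, of which 26 are in the table and 4 passed the minimum at the 32-cell stage. H2-K1, 187206 bases away, was the only one of these that was higher, and 0 were lower. Slc39a7, a zinc transporter gene (138.7 and 145.9 CPM), Rxrb, a nuclear receptor gene (13.7 and 21.1 CPM), and Brd2, a chromatin reader gene (144.7 and 142.7 CPM), had differences of 0.07, 0.59 and -0.02. Psmb8, 496 bases from the end of Tap1, was at 0.

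Over all cells the genes whose log2(CPM + 1) ran most like that of Tap1, among 11792 genes with a count in at least 13 cells, were Cd81 (Pearson r 0.73), Cox6b2 (0.71), Wdr35 (0.62), Btg2 (0.62) and Bglap3 (0.62). These correlations are descriptions over cells that share embryos and libraries, and they largely follow the 32-cell mimic group: Cd81, a tetraspanin gene, had a count in 30 of 39 mimic cells of that stage against 5 of 39 control cells and 1 of 24 mimic cells of the 8-cell stage. Within the 39 mimic cells of the 32-cell stage the r of these 5 genes with Tap1 was 0.19 to 0.43, and the 5 genes with the highest r there shared 0 names with them. Among the members H2-K1 was closest to Tap1 over all cells (r 0.52), ahead of Psmb9 (0.33) and H2-D1 (0.31), and Tap2 was at -0.01. Within the 32-cell mimic cells the r of H2-K1 with Tap1 was -0.11.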

How the data were processed

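Per the submitters' processing notes the authors used STAR 2.5.1b for alignment to mm10 and RSEM 1.3.0 for quantification. They deposited expected counts per gene and cell, all whole numbers, without normalisation. RSEM divides reads that fit several genes among them, which bears on H2-K1 and H2-D1. The study's cell filter (3000 genes, under 10% mitochondrial counts) removed 0 cells. The 13 mitochondrial genes were left out, counts were summed over the cells of a group and divided by their total (CPM), with exact Poisson intervals. Intervals of shares of cells are Clopper-Pearson, and the limit of a share of 0 is also given as 3 cells of the total. Since PCR copies cannot be told from separate molecules here, intervals and limits describe counting error alone. A difference is that of log2(CPM + 1). The pooled difference with its threshold and the Poisson interval were tested on simulated data. The simulated cells were drawn independently, without embryos or runs. Clusters, sequence searches and correlations were not tested in this way. Clusters came from Seurat (version 5.3.0; 2000 variable genes, 25 components, resolution raised from 0.6 to 0.8), and TMM factors from edgeR (version 4.0.16).

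The members and lists were chosen with earlier results of these data known. Named genes are the 9 members, the 5 genes with the highest Pearson r with Tap1, and, from each pathway list, up to 3 genes at 20 CPM or more with the largest 32-cell difference of at least 1, plus genes within 200000 bases of Tap1 and up to 2 of the highest genes of marker lists. Outside this rule, Psmb5, Psmb6 and Psmb7 were named as constitutive counterparts of members, and some marker genes for having no count. Psme1, Psme2, Calr, Nlrc5, Irf1, Hormad1, Pdgfra, Tspan8, the H2-Q genes, the class II genes, and the interferon genes Ifi35, Irf7, Oasl1, Gbp2, Gbp3 and those at 0 were named after their values were seen. Runs of cell numbers end at a gap of over 5 or a change of group. The classes were also compared without the highest cell and without each run, an alternative chosen after the data were seen. Motifs were searched on both strands.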

Additional observations from a re-analysis of the deposited data

How the results depend on the processing

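Group values rest on 1 sample each, so embryo and run effects cannot be told apart from treatment. No paired analysis was possible because the groups compared with each other share no cell numbers and no test was made. Of 366 values of single members under the alternatives, 336 kept the direction of the reported value. At the 32-cell stage the difference of H2-K1 ranged from 1.59 to 2.75 and that of H2-D1 from 0.22 to 0.46 over these alternatives, whereas Tap2 (-1.41 to 1.91), Psmb9 (-0.35 to 1.58), B2m (-0.17 to 0.90) and Psmb10 (-0.91 to 0.17) took both signs, and Tapbp ranged from 0.20 to 1.0. Within ICM-like cells Psmb9 went from 1.23 to -1.15 without the run of 18 mimic cells, an alternative chosen after the data were seen. The causes were not tested. The 32-cell count of 2 higher and 0 lower members held under every alternative of scaling, filter and threshold tried, while the members passing ranged from 4 to 9 and the shares of all genes from 5.45 to 19.6% higher and from 4.03 to 17.4% lower. Tap1, 1 of the 2, was picked on this contrast, so nothing is read from that count. The Tap1 difference of 5.61 at that stage was 5.38 with cells thinned to the lowest total, 6.21 with a pseudocount of 0.1 CPM, 6.57 without the highest cell of each group, 4.80 and 6.62 without the control runs of 24 and of 15 cells, and 5.84 and 5.21 without the mimic runs of 18 and of 12 cells.

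At the 8-cell stage 1 of 6 members was higher with a filter of 5 CPM (11% of all genes) and 2 of 9 without a filter (5.75%), against 0. Between stages in control cells 2 members were higher and 1 lower, against 1 and 0, with the mean over cells of log2(CPM + 1), with a filter of 5 CPM, without a filter and with a difference of 0.5. All genes then had 35.8, 31.1, 12.7 and 42.1% higher and 24.7, 22.5, 10.7 and 31% lower in that order. In mimic cells 1 member was lower, against 0, with the mean over cells, with a filter of 5 CPM and without a filter (21.4, 20.2 and 9.38% of all genes). The higher members there rose from 3 to 4 with both filter changes (31.8 and 13.9% of all genes). Of the 5 genes most like Tap1, 3 were shared with Spearman rho and 0 with Pearson r in 32-cell mimic cells. For members under 20 CPM depth limits what single cells can show: 3 counts in 1 cell were 0.899 to 5.75 CPM.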
